A study of Mus musculus with 491 samples.

Results

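The genes described here are 10 transcription factors that mark regions of the otic vesicle: Tbx1, Tbx2, Tbx3, Otx1, Gbx2, Gata2, Gata3, Hmx3, Lmx1a and Dlx5. They were chosen as a fixed list of names, and all 10 have a row among the 19494 genes analysed. Gbx2 and Lmx1a lie on chromosome 1, Gata3 on 2, Tbx3 on 5, Gata2 and Dlx5 on 6, Hmx3 on 7, Tbx2 and Otx1 on 11 and Tbx1 on 16. They were followed over all cells of the series and, in pairs, in the 119 cells that passed an otic gate, beside 372 cells that did not. The gate asked for Epcam of at least 5, Sox10 of at least 1 and Trp63 below 3 on the scale of the deposited values, log2(FPKM + 1), so none of the 10 genes was used to choose the cells. FPKM is the number of sequenced fragments scaled to transcript length and library size, so FPKM levels can be set beside each other between genes. A gene is called found in a cell where its FPKM was at least 1. A gene that was not found may still have been transcribed, because transcripts are missed in single cells.

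The cells came from mouse embryos of the genotype Pax2-Cre/+;Ai14-tdTomato/+ at E10.5, in which Cre is driven by a Pax2 transgene and switches on the red protein tdTomato, so that red marks the cells that had Cre and all that descend from them. Red cells of the otic vesicle and the tissue around it were sorted singly into plates, and cDNA was made with the SMARTer V3 kit and libraries with Nextera XT. All cells share this genotype and stage. Plates 1 to 3 held replicate 1 (237 cells), and plates 4 to 6 held replicate 2 (254 cells). What a replicate stands for is not stated in the labels, so no p below reaches beyond these 2 replicates. Beside the 119 otic gate cells (60 of replicate 1 and 59 of replicate 2), exclusive gates gave 36 ectoderm gate cells (Epcam of at least 5, Trp63 of at least 3), 71 neuroblast gate cells (Neurod1 of at least 3), 109 neuron gate cells (Stmn2 of at least 5), 99 neural tube gate cells (Fabp7 of at least 5) and 57 remaining cells.

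The otic vesicle is a closed epithelial sac whose dorsal wall forms the endolymphatic duct and the semicircular canals, whose ventral wall forms the cochlea, and whose anterior ventral part sheds the neurons of the ear. Regional identity is set by signals from the neighbouring hindbrain and ectoderm, and it is read out by transcription factors expressed in overlapping domains. In mice, Gbx2, Dlx5 and Hmx3 are known for dorsal and vestibular structures, Tbx1 and Otx1 for the lateral, posterior and non-neurogenic wall, and Lmx1a, Gata2, Gata3, Tbx2 and Tbx3 for broader or mixed domains.

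The otic gate matched the epithelium it is named for. Cldn6, a tight junction gene, was found in 100% of the 119 cells, the otic genes Eya1, Fbxo2 and Oc90 in 82.4%, 63.9% and 58.0%, and Pax2 in 13.4%. Defining markers of macrophages were at 0 in all gate cells, and 4 of 5 endothelial markers were at 0. Of genes listed for other cell types, Erbb3 (neural crest) was found in 58.0% of gate cells against 7.53% outside, while Foxd3, also of that list, was at 0. The neuroblast gene Neurod1 was found in 16.0% of gate cells and of the neuronal genes Tubb3 in 56.3%, Isl1 in 31.9%, Stmn2 in 12.61% and Pou4f1 in 5.04%, against 73.7%, 48.1%, 40.3% and 24.7% outside. The part of these genes in the results below was not tested. Depth in reads is unknown, and the number of genes found per cell had a median of 4909 in the otic gate against 4268 to 4532 in the other classes. Transcripts were shared between wells at 19 pairs of well rows in the same plate column. A source well was present for 84 of the 119 gate cells and absent for 35, and for some results the values in those 35 cells are given as well.

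The genomic sequence before the start of transcription is shown for the genes around which the co-occurrence below turns, Gbx2 with its partner Lmx1a and Tbx1 with its partner Gata2. The table of RefSeq starts (build GRCm38.p6) held 6 of the 10 genes with 8 start sites. The 250 bases before each start are given 5′ to 3′ on the strand of the gene, and capitals mark the GC box GGGCGG or its reverse complement CCGCCC. The Gbx2 window is at chr1:89931177-89931426 on the minus strand, and the Tbx1 window, at chr16:18590672-18590921 on the minus strand, lies just before the annotated gene. The Gata2 window, before the first of its starts, is at chr6:88193641-88193890 on the plus strand. The Lmx1a window, at chr1:167689308-167689557 on the plus strand, lies except for its last base in the first intron of the gene as GENCODE M21 annotates it.
Gbx2: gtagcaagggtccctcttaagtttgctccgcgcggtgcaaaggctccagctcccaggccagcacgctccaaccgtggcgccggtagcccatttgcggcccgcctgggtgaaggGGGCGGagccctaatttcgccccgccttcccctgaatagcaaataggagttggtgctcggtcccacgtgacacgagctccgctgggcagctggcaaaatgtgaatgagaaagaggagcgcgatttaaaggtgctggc
Lmx1a: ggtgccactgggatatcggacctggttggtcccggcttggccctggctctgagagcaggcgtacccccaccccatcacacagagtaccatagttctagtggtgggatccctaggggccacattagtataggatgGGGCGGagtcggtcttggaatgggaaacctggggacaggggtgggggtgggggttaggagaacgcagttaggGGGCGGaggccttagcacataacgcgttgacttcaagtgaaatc
Tbx1: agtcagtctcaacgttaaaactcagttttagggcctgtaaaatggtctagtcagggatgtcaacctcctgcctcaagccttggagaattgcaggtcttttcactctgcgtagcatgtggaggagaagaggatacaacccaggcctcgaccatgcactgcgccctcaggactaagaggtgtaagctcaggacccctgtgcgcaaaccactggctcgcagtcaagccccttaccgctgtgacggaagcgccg
Gata2: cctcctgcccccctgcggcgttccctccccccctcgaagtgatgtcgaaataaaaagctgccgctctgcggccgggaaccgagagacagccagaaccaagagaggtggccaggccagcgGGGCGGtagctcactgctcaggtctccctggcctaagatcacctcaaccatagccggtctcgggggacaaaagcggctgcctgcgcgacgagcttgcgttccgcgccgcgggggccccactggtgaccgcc
A GC box stood in 7 of the 8 windows, the Tbx1 window shown being the exception, and in 32.7% of the 32851 windows of the same length in the table. None of the 8 windows held the T-box half-site GGTGTGA, the GATA site AGATAA or the homeodomain site TAATTA on either strand. Those were present in 3.33%, 9.99% and 4.84% of all windows, and with none in these 8 windows no site overlapped a GC box.

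Each of the factors was found in a minority of all cells and in a larger share of the otic gate. The T-box repressor Tbx2 was the most widespread of them in the gate, found in 93.3% of otic gate cells (111 of 119; 95% in replicate 1 and 91.5% in replicate 2) and 26.3% of the 372 cells outside it. The LIM homeobox factor Lmx1a was found in 69.7% of otic gate cells and 13.4% of cells outside, the distal-less homeobox factor Dlx5 in 68.9% and 14.2%, and the zinc finger factor Gata3 in 68.1% and 24.7%. These 3 shares in the gate differed by less than their intervals, for example 60.7% to 77.8% for Lmx1a (95% Clopper-Pearson interval, counting error only). The homeobox factor Gbx2 was found in 49.6% of gate cells and 21.5% of cells outside, and the T-box factor Tbx1 in 43.7% and 13.71%. Gata2, a zinc finger relative of Gata3, was found in 36.1% of gate cells and 7.53% outside, and Tbx3, a T-box repressor close to Tbx2, in 33.6% and 11.56%. The homeobox factors Hmx3 and Otx1 were the rarest, with 20.2% and 14.3% of gate cells and 1.34% and 1.08% of cells outside. A gate cell held a median of 5 of the 10 factors (range 1 to 9) and no gate cell held none, whereas cells outside held a median of 1 and 35.8% of them held none.

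**Figure D1:**
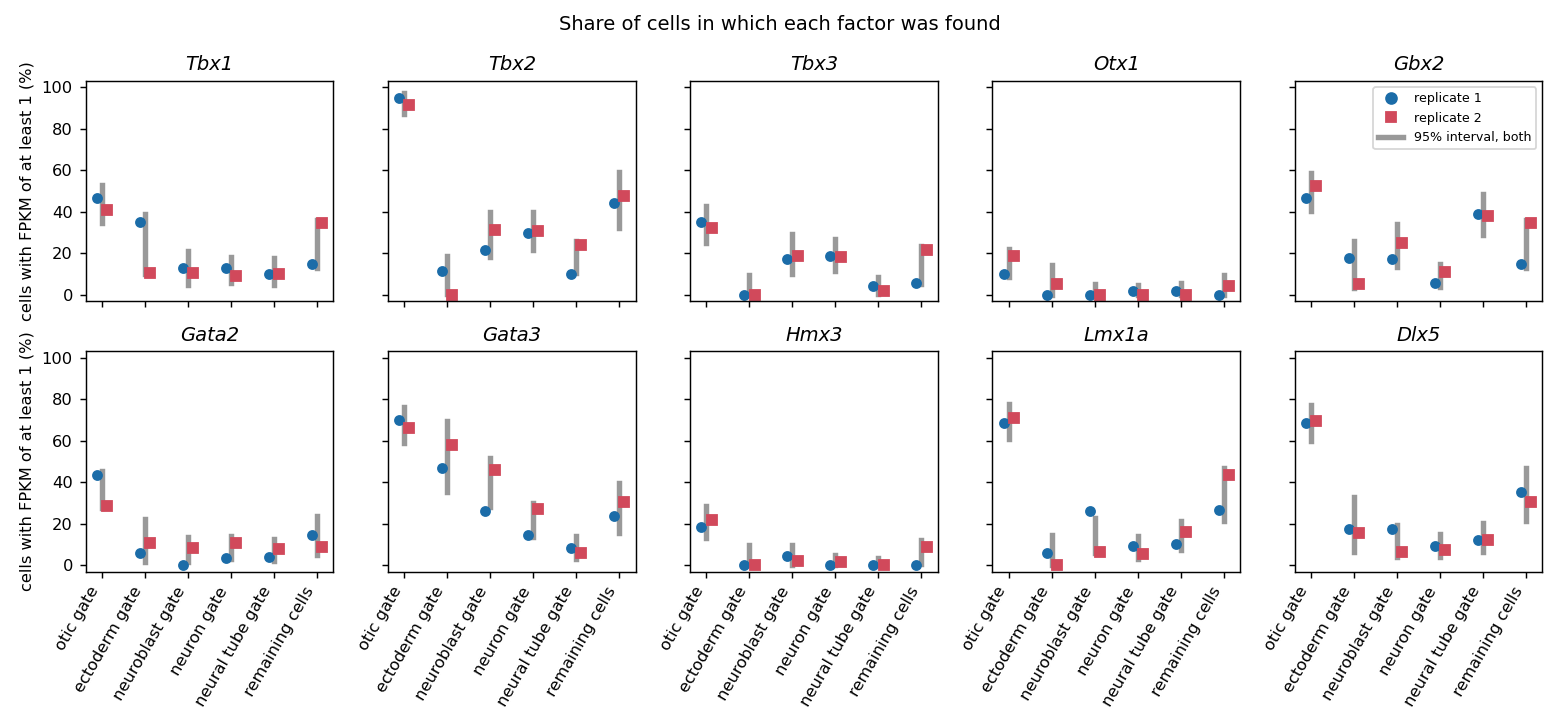
Share of cells (%) in which each of the 10 factors was found (FPKM of at least 1), by gate class, with a circle for replicate 1, a square for replicate 2 and a grey bar for the 95% Clopper-Pearson interval of both replicates together. The otic gate has the highest share for every factor, from 14.3% for Otx1 to 93.3% for Tbx2, and Gbx2 in the neural tube gate and Gata3 in the ectoderm gate are the highest shares of those factors elsewhere.

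Where a factor was found in the gate, its level also differed from gene to gene. Tbx1 had the highest level among the cells in which it was found, at a lowest, median and highest FPKM of 1.31, 141 and 426. Gbx2 (1.06, 82.0 and 283), Dlx5 (1.06, 67.4 and 309), Tbx2 (1.33, 44.0 and 188) and Lmx1a (1.32, 35.5 and 262) followed by median. The median where found was 29.6 FPKM for Otx1, 17.6 for Gata3, 13.0 for Gata2, 12.47 for Hmx3 and 9.65 for Tbx3, and the ranges of all 10 factors overlapped. Levels outside the gate were lower for Tbx1, with a median of 14.1 FPKM in the 51 cells in which it was found. Tbx3 had about the same level in both places, 9.65 FPKM in 40 gate cells and 10.9 FPKM in 43 cells outside.

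Shares varied between replicates and between plates. Gata2 was found in 43.3% and 28.8% of the gate cells of replicates 1 and 2, and Otx1 in 10% and 18.6%. Tbx1 was found in 46.7% and 40.7% of the gate cells of replicates 1 and 2, and in 23.5% to 72.2% of those of single plates. The corresponding shares of Gbx2 were 46.7% and 52.5%, with plates from 33.3% to 65.2%, and plate 2, with the highest share of Tbx1, had the lowest of Gbx2. Gata2 was also highest on plate 2, at 66.7% against 21.7% to 42.1% on the other plates. In the 35 gate cells without a source well Tbx1 was found in 34.3%, Gata2 in 25.7%, Gata3 in 60% and Dlx5 in 62.9%, against 43.7%, 36.1%, 68.1% and 68.9% in all gate cells. The shares of Lmx1a (71.4%), Tbx3 (34.3%), Gbx2 (48.6%) and Otx1 (14.3%) without a source well lay within 2 percentage points of those in all gate cells.

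Other classes held some of the factors. Gbx2 was found in 38.4% of the neural tube gate cells, at a median of 16.5 FPKM where found, and in 8.26% of neuron gate cells. Gata3 was found in 52.8% of ectoderm gate cells and 39.4% of neuroblast gate cells, and in 7.07% of neural tube gate cells. Tbx1 was found in 22.2% of ectoderm gate cells, with 35.3% in replicate 1 and 10.53% in replicate 2. Tbx2 was found in 28.2% of neuroblast and 30.3% of neuron gate cells and in 5.56% of ectoderm gate cells. Tbx3 was found in 18.3% of neuroblast and 18.3% of neuron gate cells, and in 0 of 36 ectoderm gate cells. Hmx3 was found in 0 of 36 ectoderm and 0 of 99 neural tube gate cells, and Otx1 in 0 of 71 neuroblast gate cells, with upper limits of the 95% Clopper-Pearson interval of 9.74%, 3.66% and 5.06%.

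To ask how far the factors set the otic gate apart, the mean log2(FPKM + 1) of the gate was compared with that of all other cells in each replicate, over all genes found in at least 5% of cells, with limma and the replicate as a block (Benjamini-Hochberg adjusted p below 0.05, n = 2 replicates). Of the 8 factors that passed this filter in cells on both sides, 8 were higher in the otic gate, where 25.4% of the 10238 genes tested were called in either direction (1965 higher and 637 lower). Otx1, found in 4.28% of all cells, fell under the filter and was not tested. Hmx3, in 5 of the 372 cells outside, passed the filter only through the otic gate, so its difference of 0.69 (0.75 in the otic gate and 0.05 in other cells) is given without a test and kept out of the counts. The median difference was 2.21 over the 8 factors and 0.16 over all genes. Tbx2 averaged 5.05 in otic gate cells and 1.01 in other cells, a difference of 4.03 (SE 0.25, adjusted p = 2.81e-11; 3.97 and 4.1 in the replicates). Dlx5 was higher by 3.28 (SE 0.24, adjusted p = 9.25e-10) and Lmx1a by 3.02 (SE 0.24, adjusted p = 3.20e-09). The smallest of the 8 was 0.73 for Tbx3 (SE 0.15, adjusted p = 0.00107). Each of the 8 was higher in the otic gate in both replicates. In cells without a source well the Tbx3 difference was 0.49 with an adjusted p of 0.334.

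Against each of the other gates, 7 or 8 of these 8 factors were called. No comparison is given for the 57 remaining cells. Of these, 31.6% held 4 or more of the 10 factors, against 2.78% to 12.7% of the cells in the other gates. Against the ectoderm gate 8 of 8 factors were higher in the otic gate (8.12% of all genes called, 560 higher and 271 lower), against the neural tube gate 8 of 8 (9.4% called, 754 higher and 208 lower), against the neuroblast gate 7 of 8 (6.79% called, 538 higher and 157 lower) and against the neuron gate 7 of 8 (19% called, 1217 higher and 728 lower). Tbx3 was the factor that was not called against the neuroblast gate, at 1.13 in the otic gate and 0.65 in the neuroblast gate (difference 0.48, SE 0.19, adjusted p = 0.168), nor against the neuron gate (difference 0.42, SE 0.19, adjusted p = 0.145). In cells without a source well the second of these differences was -0.77 (adjusted p = 0.222). The narrowest calls were Gata3 against the ectoderm gate, at 2.72 in the otic gate and 1.75 in the ectoderm gate (difference 0.97, SE 0.28, adjusted p = 0.0465), and Gbx2 against the neural tube gate, at 2.94 in the otic gate and 1.58 in the neural tube gate (difference 1.37, SE 0.33, adjusted p = 0.0144). The call of Gata3 held under 5 of 15 other settings, and leaving out any of plates 2 to 6 ended it (differences of 0.77 to 1.003), as did fitting without the replicate block (adjusted p = 0.0612). The call of Gbx2 held under 10 of 16 settings and ended without plate 3 (0.84, adjusted p = 0.245) or plate 4 (1.28, adjusted p = 0.0607). Leaving out plate 4 also ended the call of Gata2 against the ectoderm gate (0.85 in place of 1.11). In cells without a source well Gata3 was no longer called against the neuroblast gate (1.37, adjusted p = 0.165) or the neuron gate (1.63, adjusted p = 0.0699), nor Tbx3 (0.96, adjusted p = 0.19) and Gbx2 (1.501, adjusted p = 0.125) against the neural tube gate.

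Inside the otic gate, the question was which factors were found in the same cells. Co-occurrence is given as a log2 odds ratio, with 0.5 added to each count. Of the 45 pairs, 18 had a ratio above 0 in both replicates, 18 below 0 in both, and 9 differed in direction between the replicates. Over all genes found in 5% to 95% of gate cells, set against each factor in turn, 29% were above and 24% below in both replicates. The ratios are a description of cells that share libraries and depth. For pairs close to 0 the added 0.5 can set the sign.

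**Figure D2:**
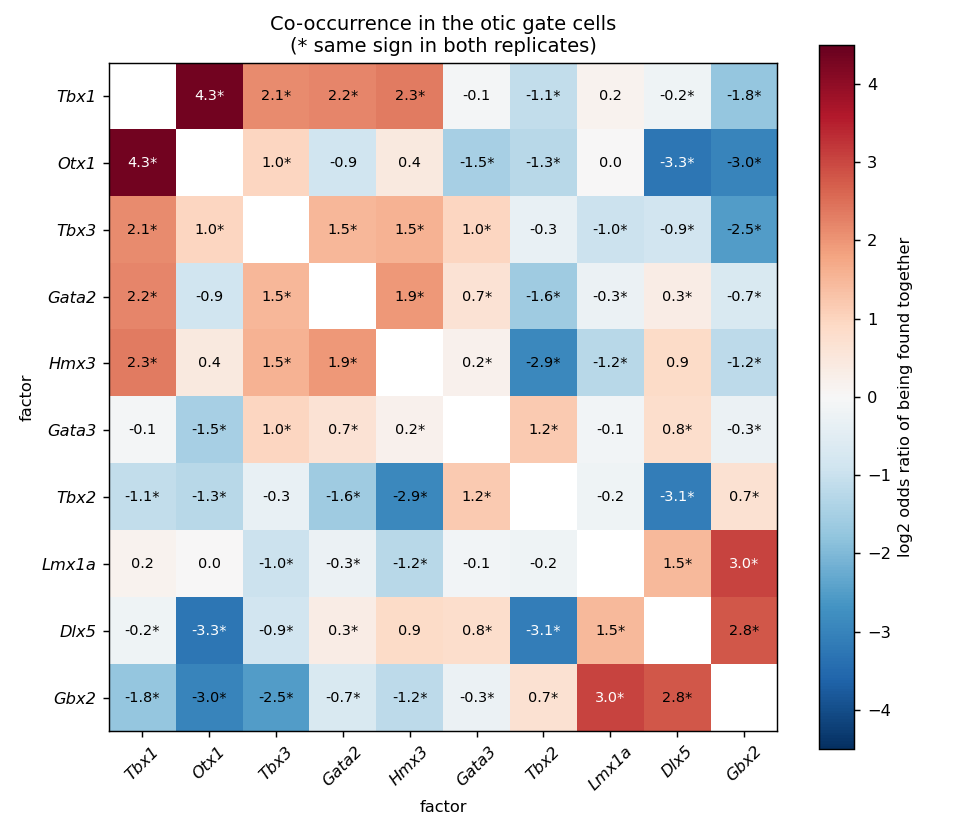
Log2 odds ratio of being found together for each of the 45 pairs of factors in the 119 otic gate cells, with red for pairs found together and blue for pairs found apart, and a star where both replicates had the same sign. Tbx1, Otx1, Tbx3, Gata2 and Hmx3 form a mostly red block, in which Otx1 with Gata2 is blue (-0.90). Lmx1a, Dlx5 and Gbx2 form another, and most pairs across the blocks are blue, down to -3.26 for Otx1 with Dlx5.

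The pair with the highest log2 odds ratio was Tbx1 with Otx1, at 4.33 (4.23 and 4.06 in the replicates). Tbx1 was found in 16 of the 17 cells with Otx1, which is 94.1%, and in 35.3% of the 102 cells without. Otx1 was found in 30.8% of the 52 cells with Tbx1 and 1.49% of the 67 cells without, so Otx1 cells lay almost entirely inside the Tbx1 cells. In the 35 gate cells without a source well 4 of 5 Otx1 cells held Tbx1 (log2 odds ratio 2.99). Tbx1 was also found more often with Hmx3 (2.34; in 75.0% of cells with Hmx3 and 35.8% without), with Gata2 (2.21; 67.4% and 30.3%) and with Tbx3 (2.12; 67.5% and 31.6%). Gata2 and Hmx3 occurred together at 1.95, Tbx3 and Hmx3 at 1.55, and Tbx3 and Gata2 at 1.49, each above 0 in both replicates. These 7 pairs stayed above 0 under each of 16 other settings. Apart from Tbx1, Otx1 was less closely tied to these factors. Otx1 with Tbx3 was at 0.96 (0.98 and 1.01 in the replicates). Otx1 with Hmx3, at 0.42 (1.41 and -0.22), and with Gata2, at -0.90 (0.42 and -1.83), differed in direction between the replicates.

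Gbx2, Lmx1a and Dlx5 made up the other group. Gbx2 was found in 63.9% of the 83 cells with Lmx1a and in 16.7% of the 36 cells without, a log2 odds ratio of 3.04 (3.58 and 2.41 in the replicates). With Dlx5 the log2 odds ratio was 2.81 (2.27 and 3.22), and Dlx5 was found in 88.1% of cells with Gbx2 and 50% of cells without. Lmx1a and Dlx5 occurred together at 1.48, but at 0.02 in replicate 1 and 3.07 in replicate 2. In cells without a source well the ratios were 2.33 for Gbx2 with Lmx1a, 2.36 for Gbx2 with Dlx5 and 1.83 for Lmx1a with Dlx5. Gbx2 stayed above 0 with Lmx1a (2.33 to 3.58) and with Dlx5 (2.1 to 3.22) under each of 16 settings.

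**Figure D3:**
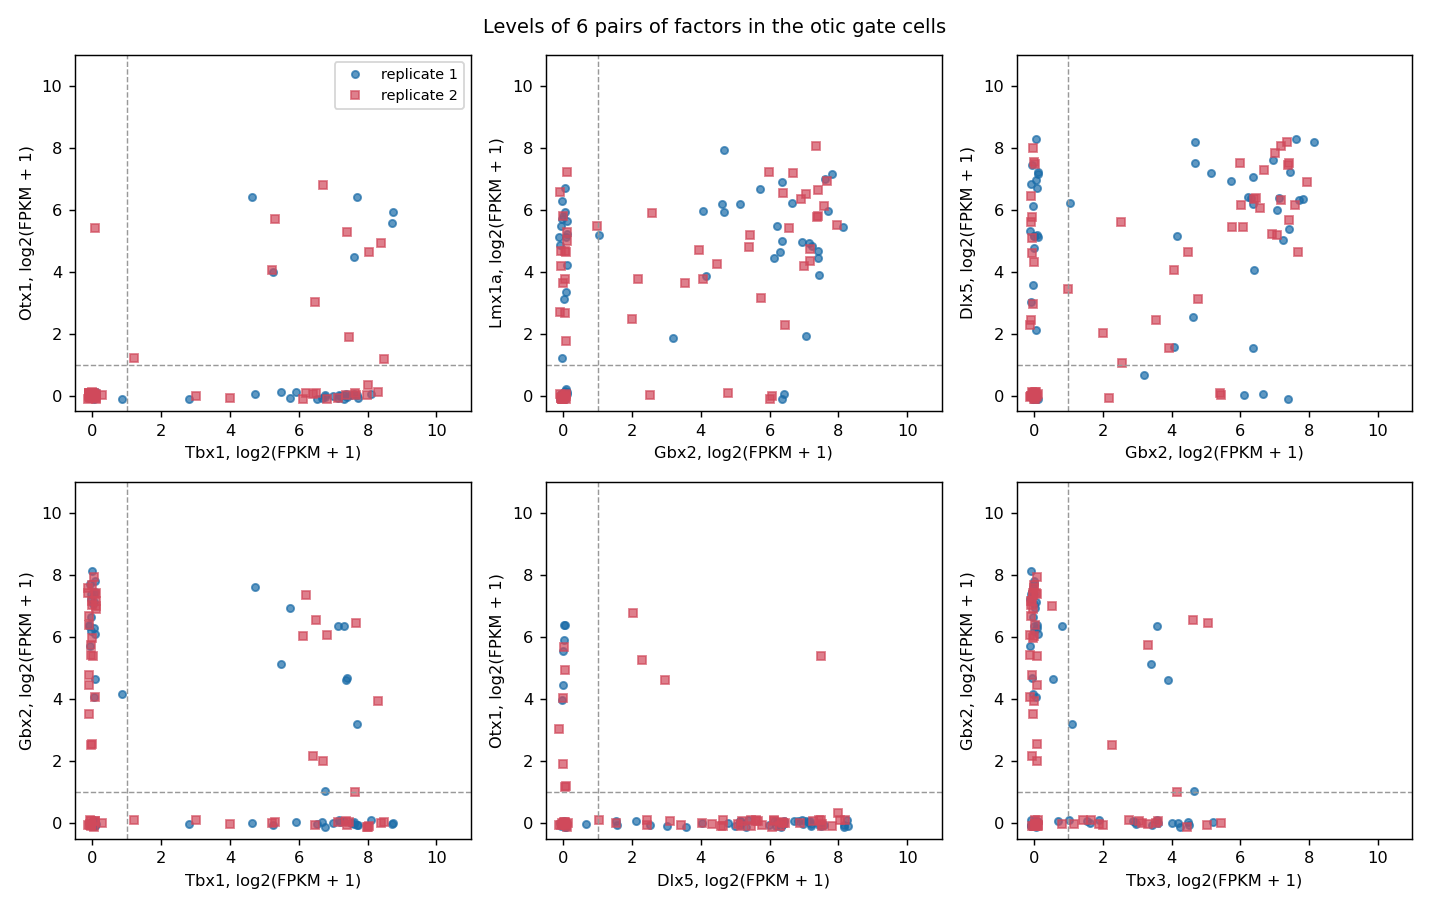
Levels, log2(FPKM + 1), of 6 pairs of factors in the 119 otic gate cells, with circles for replicate 1, squares for replicate 2 and dashed lines at the level from which a factor counts as found; cells at 0 are spread slightly so that they can be told apart. Otx1 cells lie almost all among Tbx1 cells (16 of 17), 53 cells hold both Gbx2 and Lmx1a, 52 hold both Gbx2 and Dlx5, and the upper right corner is thinly filled for Tbx1 with Gbx2 (17 cells), Dlx5 with Otx1 (4 cells) and Tbx3 with Gbx2 (9 cells).

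The groups were read off these ratios, so the ratios across them are no separate support for the groups. Of the 15 pairs across the groups, 11 were below 0 in both replicates, 1 was above 0 and 3 differed in direction. Gbx2 was found in 2 of the 17 cells with Otx1 (11.8%) and in 55.9% of the 102 cells without, a log2 odds ratio of -2.97 (-3.81 and -2.52 in the replicates). With Tbx3 the ratio was -2.50 (-2.1 and -2.81), with Gbx2 in 22.5% of cells with Tbx3 and 63.3% of cells without. With Tbx1 it was -1.76 (-1.57 and -1.87), with Gbx2 in 32.7% of cells with Tbx1 and 62.7% of cells without, so the separation was partial and 17 cells held both. In cells without a source well the ratios of Gbx2 were -1.77 with Otx1, -4.08 with Tbx3 and -2.94 with Tbx1. Dlx5 was found in 4 of 17 cells with Otx1 (23.5%) and 76.5% of cells without, a ratio of -3.26 (-5.32 and -2.44). In cells without a source well 3 of the 5 Otx1 cells held Dlx5, and this ratio was -0.28. Dlx5 and Tbx1 were close to independent, at -0.19 (-0.06 and -0.32), with Dlx5 in 67.3% of cells with Tbx1 and 70.1% of cells without, but in cells without a source well this ratio was 1.08. Gata2 and Dlx5 were the pair above 0, at 0.32 (0.09 and 0.61). The ratios of Lmx1a were -0.97 with Tbx3, -1.24 with Hmx3 and -0.25 with Gata2, each below 0 in both replicates, and 0.16 with Tbx1 and 0.00 with Otx1, where the replicates differed in direction, as for Hmx3 with Dlx5 (0.86).

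The domain names did not order every pair. Of the 3 dorsal pairs, Gbx2 with Dlx5 was above 0, Gbx2 with Hmx3 was below 0 at -1.17 (-2.1 and -0.45), and Dlx5 with Hmx3 differed in direction between the replicates (-0.42 and 2.31). Of the 6 pairs between a dorsal and a ventrolateral factor, 4 were below 0 in both replicates, Hmx3 with Tbx1 was above 0 and Hmx3 with Otx1 was mixed. By combination of Tbx1, Otx1, Gbx2 and Dlx5, the most frequent of the 119 cells held Gbx2 and Dlx5 alone (36 cells, 16 in replicate 1 and 20 in replicate 2). Tbx1 and Dlx5 alone were held by 18 cells, none of the 4 by 15, Tbx1 with Gbx2 and Dlx5 by 14, and Tbx1 with Otx1 alone by 13. The remaining 7 combinations seen held 1 to 10 cells each.

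Tbx2 and Gata3 were in neither group. Tbx2 was missed in only 8 gate cells, all 8 of which held Dlx5 and 5 of which held Hmx3, which gave log2 odds ratios of -3.10 with Dlx5 and -2.90 with Hmx3 from these few cells, and -1.58 with Gata2 (-3.36 and -0.86). A median of 4958 genes was found in cells with Tbx2 and 4430 in the 8 cells without. The ratios of Gata3 lay between -1.48, with Otx1, and 1.17, with Tbx2. Gata3 was found in 47.1% of cells with Otx1 and 71.6% of cells without.

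A test of the same relations on levels split the gate cells by whether a factor was found and compared the mean log2(FPKM + 1) of all other genes between the sides in each replicate, again with limma and the replicate as a block. The groups above were read off the same cells, so no call below is separate support for them. Tbx2 could not be split because too few cells lacked it, which left 81 ordered pairs of a splitting factor and a tested factor. Of these, 14 were called, 9 higher and 5 lower in cells with the splitting factor found. Over all genes, 0% to 0.701% were called in a split. A pair called in both orders is counted in each, although both orders use the same cells. This was so for Tbx1 with Gbx2, Gbx2 with Lmx1a and Gbx2 with Dlx5. It was also so for Tbx1 with Otx1, but Otx1 in the split by Tbx1 is given without a test. Otx1, as the tested factor, passed the 5% filter through 1 side alone in the splits by Tbx1, Gbx2 and Dlx5, and over the other 78 pairs 13 were called, 8 higher and 5 lower. With 2 replicates and 1 residual degree of freedom, the standard errors rest largely on the trend over all genes, and wholly on it in the splits by Tbx3, Otx1, Gata3 and Hmx3, so both replicates are given beside each difference. Without the replicate block 5 of the 81 were called, with means per plate 3 of 90, and in cells without a source well 0 of the 45 that could be tested.

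**Figure D4:**
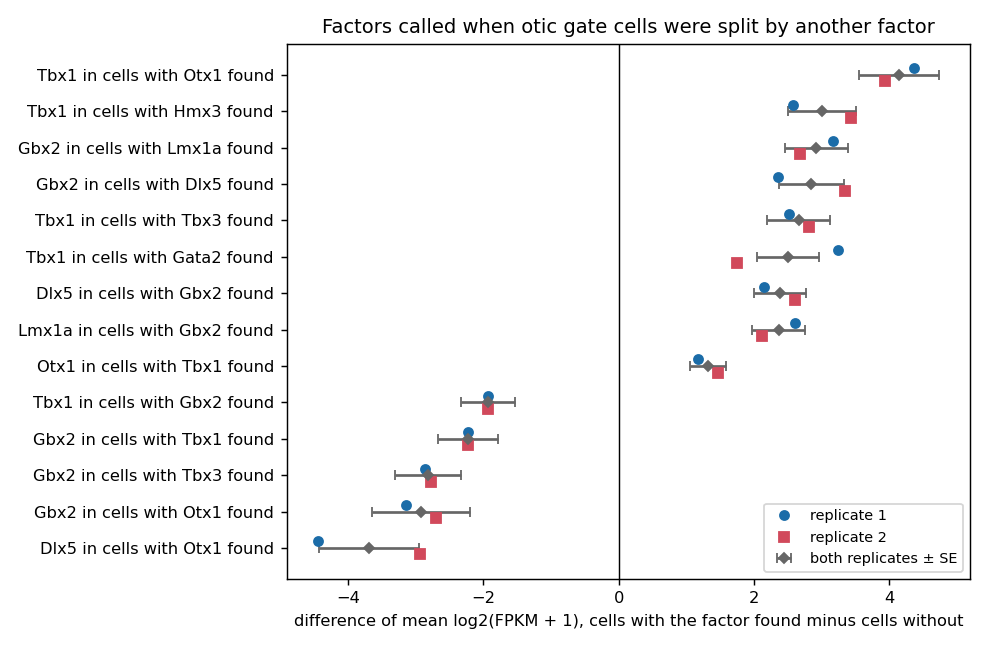
Difference of mean log2(FPKM + 1) between otic gate cells with the splitting factor found and cells without it, for the 14 ordered pairs called, with a diamond and its SE for both replicates, a circle for replicate 1 and a square for replicate 2. The differences run from 4.15 for Tbx1 in cells with Otx1 to -3.69 for Dlx5 in cells with Otx1, and each has the same sign in both replicates.

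In the split by Tbx1 (52 cells with it found and 67 without), where 0.487% of 10269 genes were called, 1 of 8 factors passed. Gbx2 averaged 1.69 in cells with Tbx1 and 3.91 in cells without, a lower level (difference -2.23, SE 0.44, adjusted p = 0.00295; -2.23 and -2.22 in the replicates). Otx1 averaged 1.4 in cells with Tbx1 and 0.08 in cells without (1.17 and 1.47 higher in the replicates), with 16 of its 17 cells on the first side, and is given without a test. Tbx3, with a difference of 1.31 (adjusted p = 0.0502), and Gata2, with 1.44 (adjusted p = 0.0508), lay just outside the threshold. The Gbx2 call ended without plate 2 (-2.74, adjusted p = 0.208) and without plate 3 (-1.45, adjusted p = 0.819).

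In the split by Otx1 (17 cells against 102; 0.282% of genes called) 3 factors passed. Tbx1 averaged 6.5 in cells with Otx1 and 2.35 in cells without (difference 4.15, SE 0.59, adjusted p = 2.76e-08; 4.36 and 3.93). Dlx5 averaged 0.67 in cells with Otx1 and 4.36 in cells without (difference -3.69, SE 0.74, adjusted p = 0.00131; -4.45 and -2.93). Gbx2 averaged 0.43 and 3.35 (difference -2.92, SE 0.72, adjusted p = 0.0312; -3.15 and -2.70). Without the replicate block all 3 calls ended (adjusted p = 0.602 each). With means per plate they ended as well (adjusted p = 0.094 for Tbx1, 0.323 for Dlx5 and 0.496 for Gbx2). The Dlx5 call ended without plate 3 (-3.17, adjusted p = 0.0538) and the Gbx2 call without plate 3, 4, 5 or 6 (-2.54 to -3.15).

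The split by Tbx3 (40 cells against 79; 0.701% of genes called) gave 2 calls. Tbx1 averaged 4.70 in cells with Tbx3 and 2.04 in cells without (difference 2.66, SE 0.47, adjusted p = 1.73e-05; 2.51 and 2.81). Gbx2 averaged 1.07 in cells with Tbx3 and 3.89 in cells without (difference -2.82, SE 0.48, adjusted p = 1.14e-05; -2.86 and -2.77). Without plate 1 both ended, at 2.77 and -2.98 (adjusted p = 0.0683 each).

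The splits by Gata2 and Hmx3 each returned 1 factor, Tbx1. It averaged 4.48 in the 43 cells with Gata2 and 1.98 in the 76 cells without (difference 2.5, SE 0.46, adjusted p = 0.0299; 3.24 and 1.75), where 0.0487% of genes were called. It averaged 5.32 in the 24 cells with Hmx3 and 2.32 in the 95 cells without (difference 3.0, SE 0.50, adjusted p = 5.67e-06; 2.57 and 3.43), where 0.234% of genes were called. The first call ended without plate 5 (1.96, adjusted p = 0.102) and the second without plate 4 (2.31, adjusted p = 0.0664). Both ended without the replicate block (adjusted p = 0.115 and 0.429) and with means per plate (0.221 and 0.495). With Hmx3 counted as found from an FPKM of 10, the second call ended too (adjusted p = 0.572).

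The splits by Gbx2, Lmx1a and Dlx5 gave 5 calls, and 4 of them were between these 3 factors. These 4 are Gbx2 with Dlx5 and Gbx2 with Lmx1a, each called in both orders. The group had been read off the same cells, so these calls are no separate support for it. In the split by Gbx2 (59 cells against 60; 0.575% of genes called), Dlx5 was higher by 2.38 (SE 0.39, adjusted p = 0.0131; 2.15 and 2.61) and Lmx1a by 2.36 (SE 0.40, adjusted p = 0.0167; 2.6 and 2.12). Tbx1 averaged 1.96 in cells with Gbx2 and 3.89 in cells without (difference -1.93, SE 0.40, adjusted p = 0.0473; -1.93 in both replicates). With the cells split by Lmx1a (83 against 36; 0.166% called) Gbx2 averaged 3.83 in cells with Lmx1a and 0.91 in cells without (difference 2.92, SE 0.47, adjusted p = 0.00616; 3.16 and 2.68). In the split by Dlx5 (82 cells against 37; 0.253% called) Gbx2 averaged 3.82 in cells with Dlx5 and 0.98 in cells without (difference 2.85, SE 0.48, adjusted p = 0.0223; 2.35 and 3.35). The difference of Lmx1a in the split by Dlx5 was 1.80 and missed the threshold (adjusted p = 0.219). Of the calls in the split by Gbx2, that of Lmx1a held under 16 of 17 other settings, that of Dlx5 under 15 of 17, and that of Tbx1 ended without plate 3, 4 or 6 (-1.33, -1.59 and -2.00). The call of Gbx2 in the split by Lmx1a ended without plate 3 or 5 (2.36 and 2.42), and in the split by Dlx5 without plate 4 (2.43).

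No factor was called with Gata3, whose split (81 cells against 38) called 0% of 10269 genes by limma after Benjamini-Hochberg adjustment, and 560 had an unadjusted p under 0.05. The differences of the 9 factors ran from -0.85, for Lmx1a, to 0.60, for Dlx5.

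A second list held 48 other genes of otic regions and of the signals that pattern them, of which 45 were tested in the splits. The median difference over the 45 ran from -0.28, in the split by Lmx1a, to 0.16, in the split by Tbx3, against -0.04 to 0.07 over all genes in the 9 splits. The genes Id1, Id2 and Id3, inhibitors of basic helix-loop-helix factors that are induced by BMP signalling, were all 3 higher in cells with Tbx1, Tbx3, Gata2 and Hmx3. Id3 averaged 10.02 in cells with Tbx1 and 8.44 in cells without (difference 1.59, SE 0.11, adjusted p = 4.16e-18; 2.05 and 1.13). This SE rests largely on the trend over all genes, and the replicates lie further apart than it. The Id3 difference was 1.39 with Tbx3, 1.41 with Gata2 and 1.32 with Hmx3. Id2 was also higher with Otx1 (0.99) and Id3 with Dlx5 (0.83, SE 0.15, adjusted p = 0.037). In the split by Tbx3 the Id1 difference was 2.22 in replicate 1 and 0.09 in replicate 2, and its call held under 8 of 17 other settings, ending without plate 1, 4 or 6 (0.94, 0.71 and 0.99). Without plate 1 the calls of Id2 (1.44) and Id3 (1.02) with Tbx3 ended too, and that of Id2 also without plate 6 (1.14). The Id1 call with Tbx1 ended without plate 2 (1.68) or 3 (1.95), the Id2 call with Otx1 without plate 4 (0.90) or 6 (0.88), and the Id3 call with Dlx5 without plate 5 (0.34). Without the replicate block the calls of Id1, Id2 and Id3 with Hmx3 ended (adjusted p = 0.429, 0.496 and 0.429), as did those of Id1 (0.489) and Id3 (0.0929) with Tbx3, Id1 with Gata2 (0.167), Id2 with Otx1 (0.602) and Id3 with Dlx5 (0.414). With means per plate, 10 of the 14 calls of Id genes ended, among them all 3 with Tbx3. All 3 calls with Tbx3 also ended in cells without a source well, where no split by Otx1, Gata2 or Hmx3 could be made, as did Id1 with Tbx1 and Id3 with Dlx5. With Tbx1 counted as found from an FPKM of 10, all 3 of its Id calls ended (adjusted p = 0.586, 0.135 and 0.208).

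**Figure D5:**
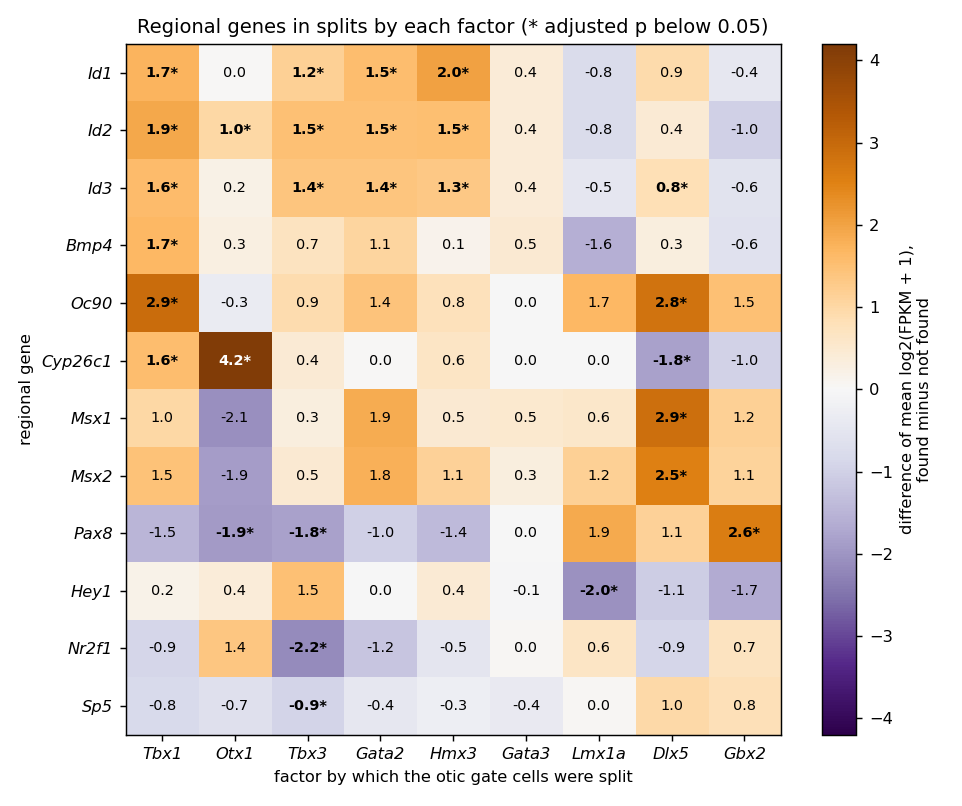
Difference of mean log2(FPKM + 1) between otic gate cells with a factor found and cells without it, for the 12 other regional genes called in at least 1 split, with orange for higher and purple for lower and a star for an adjusted p below 0.05. The Id genes are starred together under Tbx1, Tbx3, Gata2 and Hmx3, Cyp26c1 is at 4.16 under Otx1 and -1.83 under Dlx5, and Pax8 is at 2.6 under Gbx2. The stars of Cyp26c1, and of Pax8 under Otx1, belong to genes that passed the 5% filter through 1 side alone.

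Of the 45 listed genes, the Id genes included, 6 were called with Tbx1, 6 with Tbx3, 5 with Dlx5, 3 each with Otx1, Gata2 and Hmx3, 1 each with Gbx2 and Lmx1a, and 0 with Gata3. Among these calls, Cyp26c1 with Tbx1, Otx1 and Dlx5 and Pax8 with Otx1 passed the 5% filter through 1 side alone. Their values are given without a test, and they make up 1 counted call with Tbx1, 2 with Otx1 and 1 with Dlx5. With Tbx1, Oc90, which encodes the main matrix protein of otoconia, was higher by 2.93 (SE 0.39, adjusted p = 7.66e-07; 3.11 and 2.76) and the ligand gene Bmp4 by 1.67 (SE 0.36, adjusted p = 0.00895; 2.31 and 1.02). The Bmp4 call held under 8 of 17 other settings, and the difference was 0.47 in cells without a source well (adjusted p = 0.891) and 1.17 after correction for transfer between wells (adjusted p = 0.43). The retinoic acid degrading enzyme gene Cyp26c1 averaged 1.57 in cells with Tbx1, where 14 of 52 held it, and 0 in cells without, where 0 of 67 did. In cells with Otx1 it averaged 4.28, against 0.12 in cells without (11 of 17 cells and 3 of 102). In cells with Dlx5 it averaged 0.11, against 1.94 in cells without (2 of 82 cells and 12 of 37). Leaving out plate 2 ended the calls of Oc90 (2.19) and Bmp4 (1.81) with Tbx1, and leaving out plate 3 (1.15) or 5 (1.44) that of Bmp4.

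The homeobox genes Msx1 and Msx2, targets of BMP signalling, were higher in cells with Dlx5. Msx1 averaged 4.29 in those cells and 1.4 in cells without (difference 2.89, SE 0.51, adjusted p = 0.0266; 3.78 and 1.99), and Msx2 averaged 2.75 and 0.22 (difference 2.54, SE 0.39, adjusted p = 0.0175; 2.6 and 2.47). Oc90 was higher with Dlx5 as well (2.82, SE 0.44, adjusted p = 0.0175; 2.47 and 3.17), so that it was called with both Tbx1 and Dlx5. Pax8, an early otic paired box gene, averaged 3.0 in cells with Gbx2 and 0.40 in cells without (difference 2.6, SE 0.44, adjusted p = 0.0167; 3.58 and 1.62). It was lower with Tbx3 (-1.82), and it was found in 0 of the 17 cells with Otx1 and 42 of the 102 without. Hey1, a Notch target, was lower in cells with Lmx1a (difference -2.05, SE 0.41, adjusted p = 0.0287; -2.09 and -2.01). With Tbx3, the nuclear receptor gene Nr2f1 was lower by 2.16 (difference -2.16, adjusted p = 0.0029) and the Wnt target Sp5 had a difference of -0.94 (adjusted p = 0.0349) that held under 3 of 16 other settings and under none of the 6 that left out a plate (-0.82 to -1.01). Leaving out plate 4 ended the Msx1 call (2.77, adjusted p = 0.0521). Without the replicate block the calls of Msx1, Msx2 and Oc90 with Dlx5 ended (adjusted p = 0.0693 each). In cells without a source well they ended too (0.0835, 0.381 and 0.463), as did that of Pax8 with Gbx2 (0.817). The Pax8 call with Gbx2 also ended with a filter of 20% of cells (adjusted p = 0.0647) and on the log2 of the mean FPKM (0.063). The Hey1 call ended without plate 3, 5 or 6 (-1.99, -1.93 and -2.22), the Nr2f1 call without plate 1, 2 or 6 (-1.97, -2.00 and -1.98), and the Pax8 call with Tbx3 without plate 1, 3 or 4 (-1.98, -1.33 and -1.71).

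The genes most like each factor over the 119 gate cells were sought by Spearman correlation among 5494 genes found in 20% to 80% of them, as a description of cells that share libraries and plates. For Gbx2 they were the ligand gene Wnt6 (0.66), the transporter-like gene Svopl (0.62) and Pax8 (0.58). Wnt6 also led for Lmx1a (0.51), followed by Fxyd3 (0.48) and Gbx2 itself (0.48), and it was second for Dlx5 (0.58), after Bambi, a BMP pseudoreceptor gene (0.66), and before Msx2 (0.57). For Tbx1 they included the homeobox genes Prrx2 (0.61) and Dlx2 (0.44). Prrx2 was found in 38.7% of gate cells and 33.9% of cells outside, and the other mesenchyme genes listed, such as Twist1 and Pdgfra (3.36% each), in at most 6.72% of gate cells. For Otx1 they included the homeobox gene Six2 (0.61) and the anion exchanger gene Slc4a2 (0.51). The 99th percentile over all 5494 genes was 0.26 for Tbx1, 0.23 for Otx1, 0.35 for Gbx2, 0.30 for Lmx1a and 0.34 for Dlx5.

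The other factors had lower leading values. Tbx3 was most like Timp3 (0.42), Tbx1 (0.41) and Herpud1 (0.40), and Gata2 was most like the netrin receptor gene Unc5b (0.49), the fibronectin gene Fn1 (0.46) and Mid1ip1 (0.40). For Hmx3 the 3 genes were the cell division genes Racgap1 (0.40), Ccnb1 (0.35) and Kif22 (0.35), and a median of 5150 genes was found in cells with Hmx3 against 4855 in cells without. Tbx2 led with Slitrk6 (0.38), Thumpd3 (0.35) and Tiparp (0.32), and Gata3 with 5430416N02Rik (0.34), Ift88 (0.33) and Nthl1 (0.32). At the other end, the lowest values were -0.53 for Lmx1a with Slitrk6 and -0.51 for Dlx5 with the Wnt antagonist gene Sfrp1. Moxd1 was the lowest for both Tbx1 (-0.41) and Gata2 (-0.47). The lowest were Col11a1 for Otx1 (-0.40), Zbtb20 for Gbx2 (-0.44), Rbpms for Tbx3 (-0.41), Gm4349 for Gata3 (-0.34), H19 for Tbx2 (-0.33) and Mtr for Hmx3 (-0.29).

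Hmx3 and Dlx5 each lie beside a related gene. Hmx2 begins 3847 bases beyond Hmx3 on chromosome 7 and was found in 20 gate cells (16.8%), 7 of which also held Hmx3 (log2 odds ratio 1.39; 2.06 and 0.90 in the replicates). Dlx6 lies 9236 bases from Dlx5 on chromosome 6 and was found in 11 gate cells (9.24%), 10 of which held Dlx5 (1.82; 1.65 and 1.23). Some factors share their locus with an overlapping annotated gene, namely Tbx3 with Tbx3os1, Gbx2 with D130058E05Rik, Gata3 with Gm13256, 4930412O13Rik and 9230102O04Rik, and Hmx3 with Fgfr2 on the opposite strand. Whether the library marks the strand is not stated in the labels, so reads of these pairs cannot be told apart.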

How the data were processed

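The authors' deposited table gives 1 value per gene and cell on a log2 scale, read as log2(FPKM + 1) from the values. The tools named, per the submitters' processing notes, are Cufflinks, TopHat, Bowtie2, Bowtie, SAMtools, cutadapt and FastQC, and the build is mm10. Their order, versions and strand setting are not given in the sources used here. Of 19659 rows, 29 without a match in GENCODE M21, 132 rows of 63 repeated identifiers and 4 with a shared symbol were left out, which left 19494 genes, and 74.96% of all values were 0.

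Means of log2(FPKM + 1) per side and replicate were fitted over all genes with limma 3.58.1 (R 4.3.3), with trend and the replicate as a block, for genes found in at least 5% of cells, with Benjamini-Hochberg adjustment. Both sides of each comparison come from the same replicates, hence the block. A split needed 5 cells on each side in each replicate. Intervals of shares are 95% Clopper-Pearson and cover counting error only. Wells in the same plate column were linked where 2 positions (plate and row) shared genes found in 2 to 15 cells in both replicates (sharing of at least 0.1; linked pairs 0.141 or more, others at most 0.0325). The fit was tested on simulated data. Tables were made with Python 3.11.15. Named genes are the 10 factors, the 3 most and 1 least similar genes of each, listed regional genes called in a split, and Hmx2 and Dlx6; some of these are not reported here. The factors and lists were chosen with earlier results of these data known. Alternatives changed the pseudocount, filter, scaling, block, unit, gate, threshold, transfer and plates.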

Additional observations from a re-analysis of the deposited data

How the results depend on the processing

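The 14 ordered pairs called inside the otic gate, Otx1 in the split by Tbx1 counted, became 5 with no replicate block and 3 with means per plate. They became 0 in cells without a source well, 9 without plate 1 and 8 without plate 3, and 10 to 16 under the other settings. The count of pairs with a log2 odds ratio below 0 in both replicates, 18, became 10 in cells above the median number of genes found. The comparison with the neuroblast gate called 4 factors, in place of 8 (Hmx3 counted), on the log2 of the mean FPKM. Without the replicate block the other class comparisons called 8 or 9 factors, again with Hmx3 counted, as with it or 1 fewer. The median share of gate cells with a factor found, 46.64%, was 47.9% at any FPKM above 0, 42.02% at an FPKM of at least 10, 46.09% with the gate read as FPKM, 49.0% with Neurod1 below 1, 57.25% with Oc90 found, 41.43% without a source well, 51.69% above the median number of genes, 43.04% after correction for transfer, and 49.0%, 45.54%, 45.31%, 47.0%, 44.79% and 48.04% without plates 1 to 6. It was 46.61% and 46.67% in single replicates. None of these settings reversed a call. The causes were not tested. The split by Otx1 could not be made without plate 1 or 2, nor the ectoderm comparison in cells without a source well. With single replicates no test is possible, and depth in reads is unknown, so absence from a cell cannot be told apart from a missed transcript.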

Other observations

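Lfng, which encodes a modifier of Notch receptors known from the neurogenic and sensory parts of the otic vesicle, was not called in any split and was picked out here after its values were seen. It was found in 3 of 59 otic gate cells with Gbx2 (5.08%) and 17 of 60 without (28.3%), a log2 odds ratio of -2.70 (-4.73 and -1.51 in the replicates, -2.84 in cells without a source well). With Lmx1a it was found in 8.43% of cells and in 36.1% of cells without (-2.55; -2.00 and -3.01), and with Dlx5 in 8.54% and 35.1% (-2.47; -2.00 and -2.84). With Tbx3 it was found in 25% of cells and 12.7% without, but the direction differed between the replicates (2.43 and -0.08).

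Gata3, Tbx2 and Tbx3 were also set against Prdm12 in nerve cells. In the neuroblast gate Gata3 was found in 21 of 37 cells with Prdm12, a gene of sensory neuron precursors, and 7 of 34 cells without, Tbx2 in 16 of 37 and 4 of 34, and Tbx3 in 6 of 37 and 7 of 34. In the neuron gate Gata3 was found in 11 of 25 cells with Prdm12 and 12 of 84 without, Tbx2 in 6 of 25 and 27 of 84, and Tbx3 in 10 of 25 and 10 of 84. These counts pool cells of both replicates and were not tested.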
